A study of Mus musculus with 12 samples.

Results

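Late pachytene spermatocytes of Zfp541-/- mice (KO) were compared with late pachytene spermatocytes of wild-type mice (WT), both collected 360 h after retinoic acid (RA). The cells were those that the authors' deposited cell table annotates as late pachytene in the 360 h libraries, 487 of the 929 kept cells of the series. There were 77, 66 and 77 of them in the 3 KO libraries, and 83, 91 and 93 in the 3 WT libraries. Their UMI counts (unique molecular identifiers, each marking 1 captured cDNA molecule) were summed within each library, so that 3 KO sums were set against 3 WT sums.

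All mice were C57BL/6 and, WT included, had been fed WIN 18,446, which blocks RA synthesis, for 7 days from 2 days after birth. An RA injection then let their germ cells enter meiosis in step. Single germ cells were picked by hand from dissociated testis and read by a modified Smart-seq2 method that counts 3′ ends. Early pachytene cells of KO and WT mice at 260 h, treated in the same way, served to test whether the genotype effect differed between the times (59, 50 and 32 cells in KO libraries, and 25, 57 and 72 in WT libraries). Time and cell class changed together in that test and cannot be told apart. A difference between the times below is therefore one of time and class together. Neither the deleted part of Zfp541 nor the number of animals behind a library is given in the sources used here, and the p-values below therefore speak of differences among libraries, some of which may be technical.

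Pachytene is the long stage of meiotic prophase in which paired homologous chromosomes exchange DNA. Early in it, recombination proteins repair programmed DNA breaks on the chromosome axes. Late in it, the cells stock transcripts for the meiotic divisions and for the sperm tail and acrosome, many of which are translated only after meiosis. ZFP541 is a zinc finger protein of spermatocytes that binds KCTD19 and the histone deacetylases HDAC1 and HDAC2.

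The class label held only in part. Of 19 late pachytene markers, 13 were higher in every KO late pachytene library than in any KO early pachytene library, and 16 were so among WT libraries. Summed, these markers stood at 8851, 6916 and 6559 CPM in KO libraries, and at 12953, 15284 and 9379 CPM in WT libraries (CPM: UMIs per 1000000 gene UMIs of the library after TMM scaling). The sums of KO libraries lay below all of those of WT libraries, and 14 of the 19 markers were called lower in KO. Summed markers of early pachytene were at 3879, 4509 and 4069 CPM in KO libraries, against 1584, 1885 and 1922 CPM in WT libraries, with 10 of 16 called higher and 0 lower. Both were below the early pachytene libraries of the same genotype at 260 h (4620 to 6338 CPM in KO, 4339 to 7006 CPM in WT). Of the 16, 8 were lower in every KO late than in any KO early pachytene library and 5 higher, against 11 and 1 among WT libraries. Prdm9 and Mei1, called higher in KO, averaged 3.16 and 3.37 CPM in WT early and 3.95 and 3.43 CPM in WT late pachytene libraries. Neither thus marked early pachytene in WT cells. All 220 KO cells belonged to the authors' cluster 4 and all 267 WT cells to their cluster 5, so that different clusters made up the class in the 2 genotypes and no cluster could be compared with itself. None of the fixed markers was among the 10 leading genes of either cluster. Both clusters were built from these same counts, and genes that separate them are also genes that differ between the genotypes.

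Gene UMIs numbered 8640883, 8322773 and 9463189 in KO libraries, and 12871607, 14538367 and 27090882 in WT libraries. The median cell had 100448 to 113563 UMIs in KO libraries and 151940 to 289197 in WT libraries. WT library 3 stood apart: it was the deepest, lay far from the others on the second principal component (11.6% of the variance, against 70.3% for the first, which separated the genotypes), and its 12 round spermatid markers summed to 296.8 CPM, against 10.2 and 10.6 CPM in the other WT libraries and 3.71 to 8.46 CPM in KO libraries. Gene UMIs per spike-in UMI (synthetic RNA added to each cell) were 12.3, 13.9 and 12.8 in KO libraries, and 19.6, 16.7 and 31.4 in WT libraries. KO cells thus carried fewer gene UMIs for the same spike-in UMIs, and scaling by spike-ins gives lower KO levels than TMM. All 96 cell barcodes recur in all 12 libraries, so cells were kept apart by library. Between libraries, log2 CPM correlated across genes at 0.9347 to 0.9677 within a genotype and at 0.7811 to 0.842 between genotypes.

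Zfp541 itself (chromosome 7, 16061814 to 16096334, build mm10) was at 165, 144 and 158 CPM in KO libraries, against 213, 190 and 170 CPM in WT libraries. The levels did not overlap but differed little, and the gene was not called (log2 fold change −0.29 ± 0.18 (SE); edgeR adjusted p = 0.235). A count of 3′ ends need not see the deleted part, so this does not check the genotype labels. Of 7 genes listed for its complex and for related scaffolds, 2 of the related scaffold group were called higher and 0 lower, where 12.4% of all genes tested were higher and 22.3% lower. Trerf1, encoding an ELM2-SANT protein related to the scaffolds of such complexes, had 13.6, 19.7 and 12.8 CPM in KO libraries, against 3.54, 3.36 and 4.72 CPM in WT libraries (log2 fold change 1.98 ± 0.38), and its call was lost with spike-in scaling (adjusted p = 0.0807, edgeR). Elmsan1, encoding a scaffold of histone deacetylase complexes, had 6.27, 3.43 and 5.47 CPM in KO libraries, against 0.983, 0.305 and 0.934 CPM in WT libraries (2.73 ± 0.59). Both genes were low in all libraries, and Hdac1, Hdac2, Dnttip1 and Kctd19 had log2 fold changes between −0.35 and −0.09 that were not called.

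The genotypes differed in a large share of all genes. Of 16869 genes tested with edgeR's quasi-likelihood test (a gene was called where its p, adjusted by the Benjamini-Hochberg method, was under 0.05), 2085 were higher in KO (12.4%) and 3762 lower (22.3%), 34.7% in all. At least 2-fold differences made up 1784 of the higher and 3124 of the lower calls, and at least 8-fold differences 424 and 987. Over all genes the log2 fold change of KO over WT had a median of −0.13. The 3 KO libraries lay wholly above the 3 WT libraries in 3468 genes (20.6%) and wholly below them in 4949 (29.3%). Without WT library 3 the counts were 2166 higher and 4069 lower, and without KO library 2 they were 1337 and 2551. With every kept cell of the 360 h libraries, whatever its class or cluster, 1889 were higher and 3696 lower. Scaled by spike-ins, 870 were higher and 4471 lower, which put 16.3% of the calls on the higher side, where TMM put 35.7%. Spike-in scaling shifted the median of all genes by −0.49, and TMM over the 6 libraries alone shifted it by 0.16. The 12.4% and 22.3% are the shares against which the counts of the gene lists below are read.

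Largest changes are given among called genes with a mean of at least 20 CPM over the 6 libraries, no overlap between the genotypes and an assigned name. The largest such rise was that of Clca3b, a gene of the calcium-activated chloride channel regulator family (chromosome 3, 144822623 to 144849357). It had 50.3, 53.8 and 45.6 CPM in KO libraries, against 0.491, 0.407 and 0.489 CPM in WT libraries. KO libraries held 1258 UMIs of it in all and WT libraries 20, so it was nearly absent in WT cells (log2 fold change 6.71 ± 0.33). Tmem160, encoding a small membrane protein (chromosome 7, 16452779 to 16455494), had 180, 89.9 and 97.7 CPM in KO libraries, against 0.59, 0.611 and 2.14 CPM in WT libraries (6.63 ± 0.56). This gene lies near Zfp541 (chromosome 7, 16061814 to 16096334), and whether the altered locus bears on its level was not tested. Among the deepest falls was that of Tekt3, encoding a tektin, one of the filament proteins of flagellar microtubules (chromosome 11, 63061654 to 63094964). It had 1.33, 1.35 and 0.619 CPM in KO libraries, against 260, 354 and 160 CPM in WT libraries (−7.89 ± 0.44). Susd5, encoding a sushi domain protein (chromosome 9, 114057140 to 114098728), had 0.4, 0.491 and 0.103 CPM in KO libraries, against 61.5, 55.7 and 34.5 CPM in WT libraries (−7.25 ± 0.51). The promoters of these 4 genes, 250 bases before to 50 after the start in RefSeq's GRCm38.p6 (mm10), are printed because these genes lie near the ends of the range of change. In order they are chr3:144849253-144849552 (minus strand), chr7:16452529-16452828, chr11:63061409-63061708 and chr9:114057104-114057403 (plus strand), and capitals mark the 1 motif match found, AACTGCC.
Clca3b: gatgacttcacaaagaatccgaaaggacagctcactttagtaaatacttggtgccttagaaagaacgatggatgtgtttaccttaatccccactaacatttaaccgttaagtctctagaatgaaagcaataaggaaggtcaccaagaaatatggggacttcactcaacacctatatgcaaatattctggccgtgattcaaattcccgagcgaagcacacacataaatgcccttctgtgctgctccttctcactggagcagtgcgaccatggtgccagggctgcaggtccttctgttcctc
Tmem160: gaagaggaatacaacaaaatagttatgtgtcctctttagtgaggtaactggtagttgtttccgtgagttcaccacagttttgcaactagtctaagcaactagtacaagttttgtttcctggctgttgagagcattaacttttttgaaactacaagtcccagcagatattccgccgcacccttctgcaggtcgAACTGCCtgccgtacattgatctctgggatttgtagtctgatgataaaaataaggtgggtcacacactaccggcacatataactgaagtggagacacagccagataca
Tekt3: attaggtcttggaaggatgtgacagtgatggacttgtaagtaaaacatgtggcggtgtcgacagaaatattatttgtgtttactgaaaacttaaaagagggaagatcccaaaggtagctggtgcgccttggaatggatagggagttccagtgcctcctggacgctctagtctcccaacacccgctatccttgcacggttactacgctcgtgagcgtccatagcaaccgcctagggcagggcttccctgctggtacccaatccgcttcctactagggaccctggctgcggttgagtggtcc
Susd5: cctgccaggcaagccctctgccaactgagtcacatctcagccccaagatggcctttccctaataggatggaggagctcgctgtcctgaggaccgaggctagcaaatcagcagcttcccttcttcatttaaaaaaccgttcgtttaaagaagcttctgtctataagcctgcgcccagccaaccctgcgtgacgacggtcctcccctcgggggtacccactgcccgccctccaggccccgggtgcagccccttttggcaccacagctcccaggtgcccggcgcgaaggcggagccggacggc
Searched on both strands were CACGTG (the E-box of basic helix-loop-helix factors), GCGGGAA (E2F), AACTGCC (the MYB family), GTTGCCA (the RFX family) and TGACGTCA (the cAMP response element), which are found in 7.15%, 4.6%, 4.12%, 4.38% and 1.79% of all 32851 promoters of that length. Among the 10 promoters on record for the 12 largest rises, the MYB motif was in 2, the E-box, the RFX motif and the cAMP response element were in 1 each and the E2F motif in 0. Among the 10 for the 12 largest falls, the MYB and RFX motifs were in 1 each and the other motifs in 0. With 10 promoters a side, these counts describe the letters only.

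Besides Clca3b and Tmem160, the 12 largest rises were those of Bend6, Acot13, Dhrs3, Six5, Fads1, Arhgap21, Dip2c, Tmem41a, Rbp4 and Mpv17l2, with log2 fold changes from 5.30 to 6.26. Acot13, a thioesterase of long-chain acyl-CoA, had 477, 401 and 366 CPM in KO libraries, against 6.48, 5.80 and 5.20 CPM in WT libraries. Fads1, a fatty acid desaturase, had 191, 108 and 104 CPM in KO libraries, against 3.64, 2.44 and 3.07 CPM in WT libraries. Dhrs3, which reduces retinal to retinol, had 177, 101 and 127 CPM in KO libraries, against 1.57, 3.46 and 1.16 CPM in WT libraries. Each of the 3 was high in all KO libraries and low, but not absent, in all WT libraries, and so was Rbp4, the carrier of retinol in blood (35.1 to 51.6 CPM in KO libraries, 0.688 to 1.33 CPM in WT libraries). The homeobox gene Six5 had 188, 180 and 167 CPM in KO libraries, against 4.52, 1.12 and 2.71 CPM in WT libraries (6.00 ± 0.43). Arhgap21, encoding a GTPase-activating protein, had 139, 121 and 115 CPM in KO libraries, against 5.40, 1.73 and 1.601 CPM in WT libraries. Mpv17l2 and Dip2c share exon bases with another gene, Mpv17l2 with Rab3a on the opposite strand and Dip2c with Gm48872 on the same strand. Reads of same-strand partners cannot be told apart in the shared bases, nor can those of opposite-strand partners unless counting used strand, which is not stated, so such counts are uncertain. Either kind of overlap holds for these genes named below: Zcwpw1, Rad54b, Mcmdc2, Rnf212b, 4930447C04Rik, Syce1l, Uchl1, Pole, Ccna1, Crem, Tmem202, Acrbp, Maats1, Ift57, Hk1, Uimc1, Atrip, Ehmt1, Ddit3, Ctsl and Vkorc1.

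The 12 largest falls were those of Ccdc178, Hoxa4, Tekt3, Susd5, Hyal6, Slamf7, Tmed6, Csl, Gtsf2, Frs3os, Prss47 and Slco6c1, with log2 fold changes from −8.53 to −6.90. Ccdc178, encoding a coiled-coil protein, had 0.4, 1.23 and 0.309 CPM in KO libraries, against 206, 374 and 138 CPM in WT libraries. Slco6c1, an organic anion transporter of the testis, had 2.67, 5.15 and 5.88 CPM in KO libraries, against 517, 705 and 436 CPM in WT libraries. Hyal6, of the hyaluronidase family, had 0.267, 2.09 and 0.309 CPM in KO libraries, against 105, 203 and 86.1 CPM in WT libraries. For each, WT libraries were all high and KO libraries held few UMIs (16, 119 and 22 in all, against 8867, 21994 and 4997 in WT libraries). Tmed6, of the family that sorts secretory cargo, was the least even, with 0.801, 0.123 and 0 CPM in KO libraries, against 27.6, 87.1 and 10.2 CPM in WT libraries (−7.14 ± 1.15). Prss47, a serine protease gene, had 0.4, 0.491 and 0.103 CPM in KO libraries, against 45.0, 49.997 and 27.8 CPM in WT libraries. The homeobox gene Hoxa4 (0.123 to 0.4 CPM in KO libraries, 51.8 to 116 CPM in WT libraries) shares exon bases with an opposite-strand gene, as do Slamf7, Csl and Frs3os, so their counts are uncertain.

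**Figure D1:**
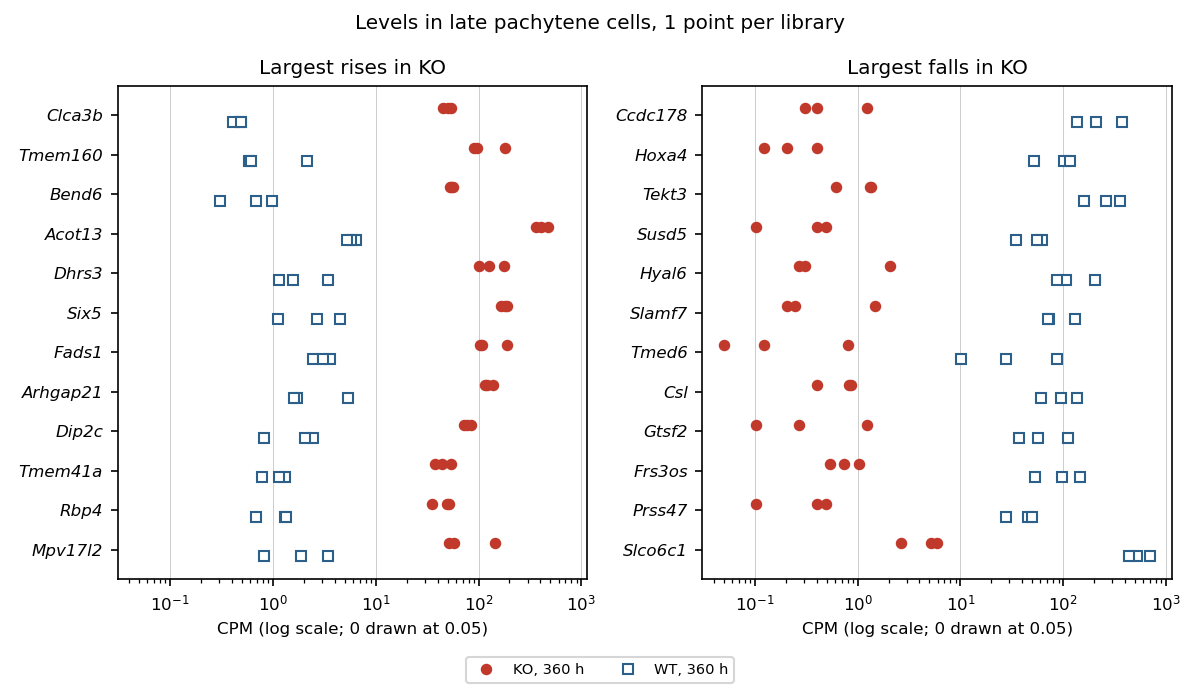
Levels of the 12 genes with the largest rise (left) and the largest fall (right) in late pachytene cells at 360 h. Each point is 1 library (KO filled circles, WT open squares) in CPM on a log axis; for every gene the 3 KO points lie apart from the 3 WT points, as for Clca3b at 45.6 to 53.8 CPM in KO against 0.407 to 0.491 CPM in WT.

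Of 14 genes for the programmed DNA breaks of meiosis, 8 were called higher in KO cells, 0 lower and 6 neither (median log2 fold change 1.53, against −0.13 for all genes). With spike-in scaling 5 stayed higher. Prdm9, whose histone methyltransferase places the breaks at hotspots, had 57.8, 76.1 and 55.2 CPM in KO libraries, against 5.11, 3.67 and 3.07 CPM in WT libraries (4.00 ± 0.31). Zcwpw1, which reads the marks PRDM9 makes, had 351, 466 and 424 CPM in KO libraries, against 23.2, 25.8 and 34.9 CPM in WT libraries (3.88 ± 0.24). Mei1, needed for break formation, had 67.3, 56.5 and 60.03 CPM in KO libraries, against 2.06, 2.75 and 5.47 CPM in WT libraries (4.12 ± 0.39). For all 3 genes every KO library was far above every WT library. Spo11, encoding the enzyme that cuts, was not called, with a mean of 126 CPM in KO libraries and 175 CPM in WT libraries.

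Of 22 strand invasion genes, which bind and exchange the broken ends, 7 were higher and 1 lower (median 0.64; 4 and 1 with spike-in scaling). Mcmdc2, a helicase-like protein of meiotic recombination, had 101, 130 and 146 CPM in KO libraries, against 9.43, 14.1 and 16.4 CPM in WT libraries (3.23 ± 0.28). Rad54b, a DNA-dependent ATPase of strand exchange, had 295, 277 and 284 CPM in KO libraries, against 36.4, 44.4 and 52.6 CPM in WT libraries (2.68 ± 0.20). Rpa3, the small subunit of the single-strand binding complex, had 113, 118 and 130 CPM in KO libraries, against 15.2, 12.02 and 29.9 CPM in WT libraries (2.65 ± 0.34). The groups stood well apart in all 3. The 1 lower gene was Rpa1, chosen after its values were seen, the large subunit of the same complex (log2 fold change −1.03). It lost its call without KO library 1, 2 or 3 or WT library 1 or 2, where 0 members were lower.

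Crossover factors had 8 of 18 higher and 1 lower (median 0.98), but 3 and 3 with spike-in scaling, and 8 and 4 without WT library 3. Hfm1, a helicase needed for crossovers, had 523, 431 and 495 CPM in KO libraries, against 86.4, 88.0 and 82.2 CPM in WT libraries (2.498 ± 0.18). Msh5, of the MutS clamp that stabilises joined strands, had 95.2, 81.9 and 77.1 CPM in KO libraries, against 14.1, 11.5 and 20.2 CPM in WT libraries (2.47 ± 0.27). Rnf212b, a relative of the crossover-designating RNF212, had 12.8, 16.7 and 13.4 CPM in KO libraries, against 1.67, 2.04 and 2.54 CPM in WT libraries (2.76 ± 0.40). All 3 genes were several times higher in each KO library than in any WT library.

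Of 10 synaptonemal complex genes, which encode the zipper between homologues, 4 were higher and 1 lower (median 0.60; 3 and 1 with spike-in scaling). Tex12, of its central element, had 340, 428 and 413 CPM in KO libraries, against 80.4, 84.1 and 139 CPM in WT libraries (1.96 ± 0.25). 4930447C04Rik, encoding SIX6OS1 of the same element, had 251, 285 and 250 CPM in KO libraries, against 39.2, 36.5 and 67.3 CPM in WT libraries (2.45 ± 0.26). Syce1l went the other way, at 31.0, 23.2 and 23.5 CPM in KO libraries, against 119, 193 and 111 CPM in WT libraries (−2.44 ± 0.27). The list therefore held genes that rose and 1 that fell, each with no overlap between the genotypes.

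Of 16 cohesin and shugoshin genes, which hold and protect sister chromatids, 5 were higher and 2 lower (median 0.29), but 1 and 3 with a median of −0.27 when scaled by spike-ins. The median was 0.50 without KO library 1, 0.13 without KO library 2 and 0.16 without WT library 2. Sgo1, encoding shugoshin 1, had 80.2, 78.1 and 69.1 CPM in KO libraries, against 5.502, 6.31 and 3.51 CPM in WT libraries (3.90 ± 0.29). The meiotic cohesin gene Smc1b had 1567, 1634 and 1397 CPM in KO libraries, against 450, 719 and 633 CPM in WT libraries (1.35 ± 0.23, adjusted p = 0.0515 by edgeR with spike-in scaling). Nipbl, the cohesin loader, had 310, 351 and 285 CPM in KO libraries, against 858, 945 and 601 CPM in WT libraries (−1.34 ± 0.22). The loader was thus lower while the meiotic subunit and shugoshin 1 were higher. Of 11 genes that tether telomeres to the nuclear envelope, 3 were higher and 2 lower (median −0.07, which turned positive, at up to 0.09, with TMM over the 6 libraries, DESeq2, thinned cells or without KO library 1). Terb2 and Majin, both of the telomere attachment complex, were higher (1.78 ± 0.20 and 1.14 ± 0.20, the second lost with spike-in scaling) and Dynlrb2, a dynein light chain, was lower (−1.17 ± 0.21).

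Regulators of meiotic entry had 5 of 19 higher and 1 lower (median 0.81), 2 and 1 with spike-in scaling, 3 and 0 without KO library 2, and 8 and 1 without KO library 1. Gm4969 (Meiosin), encoding the partner of STRA8 in meiotic entry, had 51.0, 61.8 and 31.8 CPM in KO libraries, against 0.884, 0.102 and 1.02 CPM in WT libraries (6.05 ± 0.59). It lies on chromosome 7 (19099046 to 19118368) beside Six5 (19094594 to 19098549), on the opposite strand, and both rose. Chromosome 7 also holds Zfp541, and whether the altered locus bears on these 2 genes was not tested. Ugt8a, encoding a glycolipid glycosyltransferase, had 25.6, 32.3 and 34.1 CPM in KO libraries, against 3.24, 0.407 and 1.51 CPM in WT libraries (4.15 ± 0.60). Dazl, an RNA-binding protein of germ cells, had 232, 367 and 380 CPM in KO libraries, against 161, 100 and 125 CPM in WT libraries (1.34 ± 0.26, not called with spike-in scaling). Gm4969 and Ugt8a were close to absent in WT libraries, while Dazl was present in both genotypes.

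Of 21 spermatogonial genes, 2 were higher and 1 lower (median 1.05), and 7 were higher and 1 lower without KO library 1. Uchl1, a ubiquitin hydrolase of spermatogonia, had 172, 170 and 195 CPM in KO libraries, against 76.9, 37.9 and 26.7 CPM in WT libraries (1.93 ± 0.36). Dnmt3b, a de novo DNA methyltransferase, had 31.4, 26.2 and 22.5 CPM in KO libraries, against 5.01, 4.48 and 4.27 CPM in WT libraries (2.54 ± 0.31). Nanos3, a translational repressor, had 0.934, 1.96 and 1.75 CPM in KO libraries, against 4.03, 10.3 and 4.00 CPM in WT libraries (−1.96 ± 0.59), and lost its call without KO library 1, 2 or 3 or WT library 2. Of 29 DNA replication genes 12 were higher and 1 lower (median 0.60), but 4 and 1 with spike-in scaling, 8 and 0 without KO library 2 or 3, and 8 and 1 without WT library 2. Pole and Pold1, the catalytic subunits of the replicative polymerases, rose by 1.58 ± 0.19 and 1.83 ± 0.25 on the log2 scale, both lost with spike-in scaling. Prim1, the primase subunit, had 77.8, 75.1 and 56.5 CPM in KO libraries, against 16.5, 23.8 and 19.6 CPM in WT libraries (1.80 ± 0.25).

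**Figure D2:**
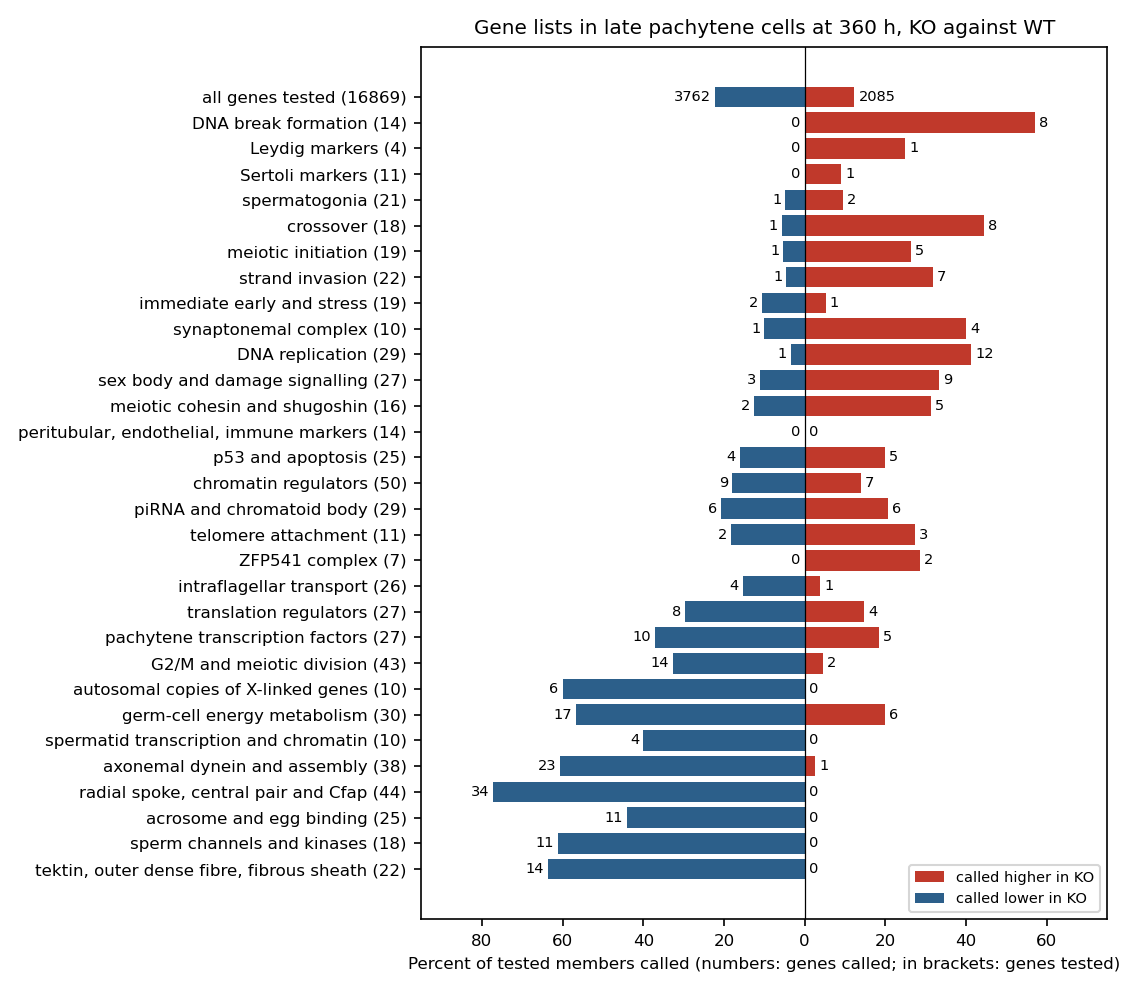
Share of the tested members of each gene list called higher (bars to the right) or lower (bars to the left) in KO than in WT late pachytene cells at 360 h, in order of the list's median log2 fold change, with all 16869 genes at the top. DNA break genes had 8 of 14 higher, while radial spoke, central pair and Cfap genes had 34 of 44 lower.

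Transcription factors of pachytene and after split both ways: of 27, 5 were higher and 10 lower (median −0.37, −0.83 with spike-in scaling). Tcf12, an E protein, had 109, 108 and 97.5 CPM in KO libraries, against 4.91, 3.77 and 3.91 CPM in WT libraries (4.64 ± 0.24). Pbx3, a homeobox factor, had 90.2, 70.3 and 68.7 CPM in KO libraries, against 7.47, 5.19 and 5.52 CPM in WT libraries (3.66 ± 0.27). The POU factor gene Pou5f2, one of the largest differences between the times, had 2.67, 4.17 and 3.51 CPM in KO libraries, against 202, 450 and 113 CPM in WT libraries (−6.20 ± 0.56). Mesp1, a basic helix-loop-helix factor named by the same rule, had 16.1, 10.8 and 7.74 CPM in KO libraries, against 653, 897 and 588 CPM in WT libraries (−5.95 ± 0.35). Sox30 and Crem, which drive spermatid genes, were lower by less: Sox30 had 31.2, 42.4 and 40.3 CPM in KO libraries, against 83.8, 68.9 and 97.9 CPM in WT libraries (−1.14 ± 0.23), and Crem had a log2 fold change of −0.90 ± 0.20.

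Of 43 genes of the G2/M transition and the meiotic divisions, 2 were higher and 14 lower (median −0.53, and −0.30 without WT library 3), and 1 and 9 without KO library 2 or without KO library 3. Ccna1, the cyclin A1 of spermatocytes, had 4.14, 6.75 and 4.64 CPM in KO libraries, against 60.4, 87.4 and 77.4 CPM in WT libraries (−3.86 ± 0.30). Aurkc, the meiotic Aurora kinase, had 3.87, 3.19 and 5.88 CPM in KO libraries, against 135, 186 and 70.5 CPM in WT libraries (−4.91 ± 0.43). Birc5 (survivin), a partner of Aurora kinases, had 124, 143 and 151 CPM in KO libraries, against 279, 398 and 296 CPM in WT libraries (−1.22 ± 0.20). Ccna1 and Aurkc were far lower in KO than in WT libraries, and Birc5 was lower by less.

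Among genes of the sperm tail, 34 of 44 genes of the radial spokes, the central pair and the Cfap group were lower in KO cells and 0 higher (77.3%, median −1.33). Cfap161 had 51.4, 27.4 and 27.5 CPM in KO libraries, against 229, 398 and 223 CPM in WT libraries (−3.001 ± 0.34). Cfap46, of the central pair, had 105, 72.4 and 98.5 CPM in KO libraries, against 339, 396 and 316 CPM in WT libraries (−1.93 ± 0.21). Maats1 had 17.0, 13.7 and 12.5 CPM in KO libraries, against 69.0, 96.1 and 58.1 CPM in WT libraries (−2.37 ± 0.27). These genes were reduced, not absent, in all KO libraries. The 10 members not called ran from −1.05 to 0.18.

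Of 38 axonemal dynein and dynein assembly genes, 23 were lower and 1 higher (median −1.12). Wdr63, of the inner dynein arms, had 85.6, 76.2 and 62.0 CPM in KO libraries, against 382, 377 and 316 CPM in WT libraries (−2.27 ± 0.20). Ccdc40, which sets the repeat of the axoneme, had 65.8, 60.5 and 53.01 CPM in KO libraries, against 296, 407 and 222 CPM in WT libraries (−2.37 ± 0.25). Pih1d3, a dynein assembly factor, had 6.14, 4.91 and 8.46 CPM in KO libraries, against 83.1, 121 and 60.9 CPM in WT libraries (−3.75 ± 0.34). The 1 higher gene, chosen after its values were seen, was Dnaic2, a dynein intermediate chain (log2 fold change 1.41). Its call was not stable: 0 members were higher with spike-in scaling or with every kept cell. The same held without KO library 1, 2 or 3 or WT library 1 or 3. Of 22 tektin, outer dense fibre and fibrous sheath genes, 14 were lower and 0 higher (median −1.68). Tekt5 had 3.604, 6.13 and 4.54 CPM in KO libraries, against 35.9, 53.9 and 77.0 CPM in WT libraries (−3.54 ± 0.37), and Odf4, of the outer dense fibres, 88.5, 73.2 and 88.4 CPM in KO libraries, against 316, 375 and 225 CPM in WT libraries (−1.87 ± 0.23).

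Intraflagellar transport, which carries material along growing cilia, gave fewer calls: of 26 genes 1 was higher and 4 lower (15.4%, against 22.3% of all genes, median −0.20, and −0.66 with spike-in scaling). Ift43, Ift57 and Ttc30b were lower (−1.11 ± 0.22, −1.46 ± 0.34 and −1.54 ± 0.40), and 2 members were lower without KO library 2, KO library 3 or WT library 1. Of 18 sperm channel and kinase genes 11 were lower and 0 higher (median −1.41). Slc9c1, the sperm sodium-proton exchanger, had 6.41, 7.85 and 6.70 CPM in KO libraries, against 191, 244 and 157 CPM in WT libraries (−4.82 ± 0.26). Catsperg2, of the sperm calcium channel, had 46.8, 26.6 and 23.6 CPM in KO libraries, against 281, 278 and 204 CPM in WT libraries (−2.98 ± 0.30). Prkaca, the catalytic subunit of protein kinase A, was lower by 2.29 ± 0.22 on the log2 scale.

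Of 25 tested acrosome and egg-binding genes, 11 were lower and 0 higher (median −1.37, and −0.87 without WT library 3 or −0.79 with a filter of 10 CPM; 18 were lower with spike-in scaling), 16 more being below the filter on low counts. Acrbp, which binds the zymogen of acrosin, had 93.8, 87.7 and 87.1 CPM in KO libraries, against 668, 940 and 445 CPM in WT libraries (−2.93 ± 0.28). Izumo4 had 49.0, 36.9 and 31.1 CPM in KO libraries, against 173, 174 and 175 CPM in WT libraries (−2.16 ± 0.22). Tmem202 had 4.80, 5.03 and 3.51 CPM in KO libraries, against 141, 261 and 93.3 CPM in WT libraries (−5.21 ± 0.43). KO libraries were below every WT library in all 3, and Tmem202 was the nearest to 0. Of 10 tested genes of spermatid transcription and chromatin 4 were lower and 0 higher (median −1.07, and −0.39 without WT library 3), 8 more being below the filter on low counts. Tnp2, a transition protein, had 0.267, 0.491 and 0.103 CPM in KO libraries, against 3.05, 5.601 and 26.4 CPM in WT libraries, the highest in WT library 3, whose spermatid markers stood apart.

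Among 30 genes of germ-cell energy metabolism, 6 were higher and 17 lower (median −0.93). Hk1, a hexokinase with a germ-cell isoform, had 2.94, 2.45 and 4.02 CPM in KO libraries, against 108, 177 and 134 CPM in WT libraries (−5.47 ± 0.31). It overlaps Hk1os on the opposite strand, which was lower too. Among 10 autosomal copies of X-linked genes, which stand in when the X chromosome is silenced, 6 were lower and 0 higher (median −0.84). With TMM over the 6 libraries, DESeq2 or thinned cells 1 was higher. Only 4 were lower without KO library 1, 2 or 3 or WT library 1 or 2. Prps1l1, the phosphoribosyl pyrophosphate synthetase copy, had 8.54, 23.8 and 16.2 CPM in KO libraries, against 904, 1143 and 581 CPM in WT libraries (−5.76 ± 0.44). Pgk2, the phosphoglycerate kinase copy, had 24.7, 18.8 and 17.8 CPM in KO libraries, against 255, 367 and 159 CPM in WT libraries (−3.67 ± 0.33). Gk2, the glycerol kinase copy, had 155, 187 and 180 CPM in KO libraries, against 758, 1166 and 541.5 CPM in WT libraries (−2.24 ± 0.29). All 3 copies were lower in every KO library than in any WT library, Gk2 by the least.

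Of 29 piRNA and chromatoid body genes, 6 were higher and 6 lower, with a median near 0 (−0.04, turning to 0.12 with TMM over the 6 libraries and positive too with DESeq2, thinned cells or without KO library 3). Fkbp6, a chaperone of piRNA loading, had 450, 457 and 414 CPM in KO libraries, against 77.7, 94.8 and 87.5 CPM in WT libraries (2.34 ± 0.18). Btbd18, which promotes pachytene piRNA transcription, had 37.9, 32.4 and 33.2 CPM in KO libraries, against 4.72, 2.55 and 2.31 CPM in WT libraries (3.44 ± 0.37). Tdrd7, a Tudor protein of the chromatoid body, had 57.4, 58.6 and 52.8 CPM in KO libraries, against 228, 221 and 169 CPM in WT libraries (−1.87 ± 0.20). Of 27 translation regulators 4 were higher and 8 lower (median −0.23, and −0.74 with spike-in scaling, where 1 was higher and 9 lower). Only 4 were lower without KO library 2, and 5 without KO library 3 or WT library 1. Cpeb1, which controls poly(A) tails, had 81.5, 85.0 and 82.1 CPM in KO libraries, against 4.03, 3.36 and 4.58 CPM in WT libraries (4.36 ± 0.25). The testis poly(A) polymerase gene Papolb had 47.9, 47.8 and 40.6 CPM in KO libraries, against 260, 243 and 273 CPM in WT libraries (−2.51 ± 0.18). Pabpc2, a poly(A)-binding protein copy, fell by 2.33 ± 0.31 on the log2 scale.

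Of 27 sex body and damage signalling genes, 9 were higher and 3 lower (median 0.41), but 2 and 3 with a median of −0.10 when scaled by spike-ins. Higher calls numbered 5 without KO library 2 (median 0.22) or WT library 1, and 6 without KO library 3. Uimc1 (RAP80), which recruits BRCA1 complexes to ubiquitin, had 470, 418 and 372 CPM in KO libraries, against 37.0, 40.1 and 60.3 CPM in WT libraries (3.19 ± 0.25). Rnf168, the ubiquitin ligase of the same pathway, had 35.2, 41.2 and 28.4 CPM in KO libraries, against 142, 160 and 143 CPM in WT libraries (−2.09 ± 0.21). Atrip, the partner of ATR, rose by 1.87 ± 0.21 on the log2 scale. Of 50 chromatin regulators 7 were higher and 9 lower (median 0.01, and −0.45 with 2 and 14 under spike-in scaling; 3 and 5 without KO library 2, 3 and 4 without KO library 3). Ehmt1, a histone H3 lysine methyltransferase, had 49.4, 58.9 and 53.4 CPM in KO libraries, against 3.93, 2.44 and 2.49 CPM in WT libraries (4.19 ± 0.31). Ezh1, a polycomb methyltransferase, had 157, 143 and 120 CPM in KO libraries, against 32.8, 37.4 and 34.7 CPM in WT libraries (2.00 ± 0.20), while Kmt2d, another methyltransferase, fell by 1.18 ± 0.21 on the log2 scale.

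Of 25 p53 and apoptosis genes, 5 were higher and 4 lower (median 0.03, and −0.41 with spike-in scaling, where 2 were higher and 4 lower). Apaf1, which activates caspases in the apoptosome, had 25.5, 26.7 and 28.0 CPM in KO libraries, against 1.97, 2.04 and 1.02 CPM in WT libraries (4.02 ± 0.39). The p53 target Trp53inp1 rose by 1.93 ± 0.26 on the log2 scale, lost with spike-in scaling. Of 19 immediate early and stress genes 1 was higher and 2 lower (median 0.63, and −0.51 with a filter of 10 CPM in 3 libraries). The median was 0.96 without KO library 1, 0.94 without WT library 1, 0.0012 without KO library 3 and 0.23 without WT library 3, so 1 library decides it. Asns, asparagine synthetase, had 85.2, 45.9 and 39.3 CPM in KO libraries, against 3.54, 2.85 and 5.65 CPM in WT libraries (3.80 ± 0.41). The chaperone gene Dnajb1 and the stress factor gene Ddit3 fell by 1.31 ± 0.20 and 1.22 ± 0.26 on the log2 scale.

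Transcripts of somatic testis cells were low, uneven and present in both genotypes. Of 14 Sertoli cell markers, the 11 that passed the filter on low counts summed to 135 to 442 CPM in KO libraries and 93.1 to 179 CPM in WT libraries. Of 11 Leydig cell markers, the 4 that passed it summed to 31.4 to 46.7 CPM in KO libraries and 15.1 to 28.8 CPM in WT libraries. Of 25 peritubular, endothelial, blood and immune markers, the 14 that passed it summed to 41.3 to 422 CPM in KO libraries and 41.9 to 412 CPM in WT libraries. Of these 11, 4 and 14 markers, 1, 1 and 0 were called, higher in both cases. Their median log2 fold changes were 1.19 (0.56 to 1.98), 1.20 (0.51 to 2.58) and 0.24 (−2.28 to 1.29). Every tested Sertoli and Leydig marker thus had a log2 fold change above 0, while the third group went both ways. With DESeq2 5, 2 and 0 were called higher, and with spike-in scaling 0 were higher in any of the groups. Without KO library 1, 6 Sertoli markers were called, and without KO library 2, KO library 3 or WT library 3, 0 were. Ctsl, a cathepsin also made outside Sertoli cells, overlapped between the genotypes, at 27.6, 78.6 and 80.1 CPM in KO libraries, against 22.7, 28.0 and 13.8 CPM in WT libraries (1.54 ± 0.43), and was not called without KO library 2 or 3 or WT library 1 or 3. Hsd3b1, a steroid enzyme, had 33 UMIs in KO libraries and 10 in WT libraries and was not called without KO library 1, 2 or 3 or WT library 1 or 2. Insl3, a defining Leydig marker, was at 0 in all 6 libraries, and Sertoli markers Sox9 and Amh were at most 9.28 and 0.859 CPM. The part of these transcripts in the results above was not tested.

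Mitochondrial UMIs made up 2.14 ± 0.214% of gene UMIs in KO libraries and 1.31 ± 0.250% in WT libraries, and spike-ins 7.16 ± 0.407% of all UMIs in KO libraries and 4.52 ± 1.31% in WT libraries (SD, n = 3 each). Neither pair of groups overlapped, and the exact two-sided permutation test gave p = 0.1 for each, the smallest it can give with 3 against 3 libraries (adjusted p = 0.2 over 4 shares). X-linked genes took 0.195, 0.333 and 0.365% of gene UMIs in KO libraries and 0.179, 0.135 and 0.208% in WT libraries (exact p = 0.2, adjusted p = 0.267), with KO library 1 inside the range of WT libraries. The X-linked share over every kept cell differed by 0.231 percentage points, against 0.124 in late pachytene cells. Y-linked genes took 0.00394 ± 0.000677% of gene UMIs in KO libraries and 0.00611 ± 0.00647% in WT libraries (exact p = 0.9, adjusted p = 0.9).

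The share of cells with a UMI tells whether a library sum came from many cells or few. With each cell thinned to 54000 UMIs, which kept all 487 cells, Prdm9 was seen in 84.4, 93.9 and 88.3% of the cells of KO libraries, against 9.64, 9.89 and 6.45% in WT libraries. Ccna1 was seen in 13.0, 22.7 and 20.8% of the cells of KO libraries, against 86.7, 95.6 and 83.9% in WT libraries. Tekt3 was seen in 5.19, 4.55 and 2.60% of the cells of KO libraries, against 100% in each WT library. For these 3 genes the difference was therefore seen in most cells of each library. Without thinning, at the full depth of each cell, Prdm9 was seen in 94.8, 98.5 and 94.8% of the cells of KO libraries, against 32.5, 25.3 and 26.9% in WT libraries. Pgk2 was in between, in 58.4, 59.1 and 57.1% of the thinned cells of KO libraries, against 100, 100 and 98.9% in WT libraries. Prdm9 and Ccna1 were both seen in 9, 14 and 15 cells of KO libraries, against 6, 8 and 6 cells of WT libraries. These are shares within a library, not a test over cells, and no doublet caller was run on the picked cells.

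**Figure D3:**
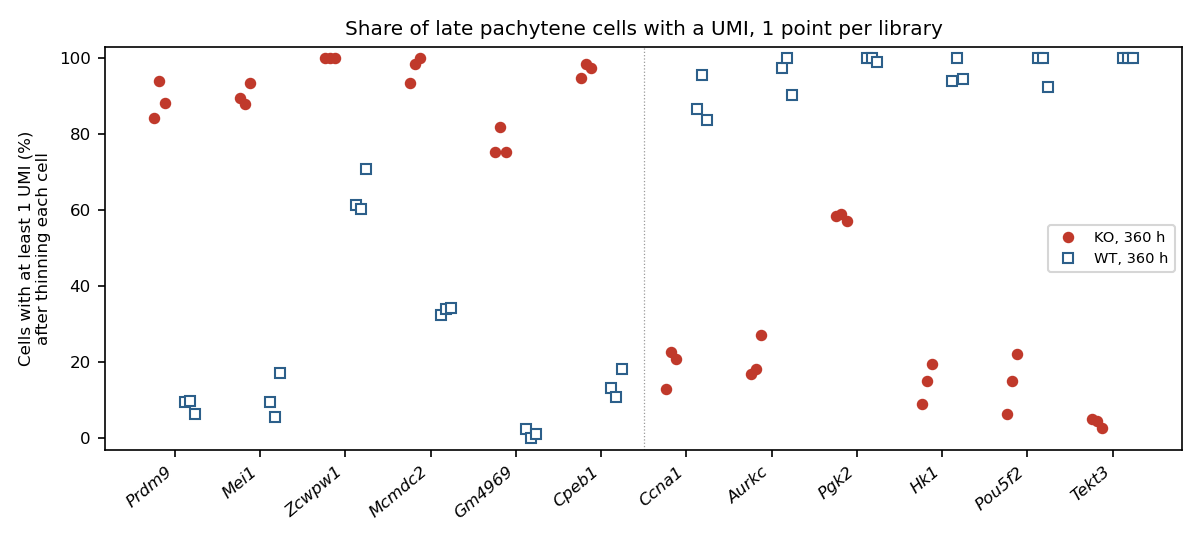
Percent of late pachytene cells with at least 1 UMI of a gene after thinning each cell to 54000 UMIs, 1 point per library (KO filled circles, WT open squares). The 6 genes on the left are seen in more KO than WT cells, as for Prdm9 (84.4 to 93.9% against 6.45 to 9.89%), and the 6 on the right in fewer, as for Tekt3 (2.60 to 5.19% against 100%).

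Whether the genotype effect in late pachytene cells at 360 h differed from that in early pachytene cells at 260 h was tested as an interaction over all 12 libraries. Time and cell class cannot be told apart in it, as the 260 h libraries held only 3 late pachytene cells. Of 18554 genes, 650 had a higher KO effect in late pachytene cells (3.5%) and 928 a lower one (5.0%), 8.5% in all. At 260 h itself, 244 of 13680 genes were higher in KO (1.78%) and 173 lower (1.26%), with 2128 at an unadjusted p under 0.05 in the same edgeR test. Scaled by spike-ins, the differences called numbered 98 higher and 382 lower, so that 20.4% were higher, against 41.2%. WT early pachytene cells of libraries 1 and 2 came from the authors' cluster 2 (all but 1 cell), whose leading genes include C1qb and Cyp11a1 of macrophages and steroid-making cells, while WT library 3 and all KO libraries held cluster 3. With WT libraries 1 and 2 of 260 h left out, an alternative chosen after seeing the data, 387 were higher and 476 lower.

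Under the same filters on level and name, the largest differences with a higher effect at 360 h were those of Dhrs3, Sbk1, Anp32e, Acot13 and Vkorc1. Anp32e, a histone H2A.Z chaperone, had 123, 140 and 139 CPM in KO late pachytene libraries, against 7.57, 2.65 and 3.603 CPM in WT libraries. At 260 h it averaged 50.8 CPM in KO and 39.8 CPM in WT libraries, so that its log2 fold change was 4.87 ± 0.39 at 360 h and 0.34 at 260 h. Vkorc1, which recycles vitamin K, and Sbk1, a kinase, showed the same form, with differences of 4.29 ± 0.50 and 4.93 ± 0.72 between the times. Anp32e, Vkorc1 and Sbk1 were thus present in both genotypes at 260 h and low in WT cells at 360 h. Dhrs3 was low in both genotypes at 260 h, with means of 3.67 CPM in KO and 4.59 CPM in WT libraries, and Acot13 was already higher in KO (60.04 CPM in KO and 17.5 CPM in WT libraries). Tcf12, Cpeb1 and Rad54b had differences of 3.86 ± 0.33, 3.32 ± 0.35 and 3.29 ± 0.41, all called.

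The largest differences with a lower effect were those of Hoxa4, Ccdc178, Prss21, Pou5f2 and Mesp1. Mesp1 averaged 9.21 CPM in KO and 5.15 CPM in WT early pachytene libraries, and its difference was −6.91 ± 0.52. Prss21, a serine protease gene of spermatocytes, had 3.20, 1.59 and 3.09 CPM in KO late pachytene libraries, against 94.1, 152 and 42.5 CPM in WT libraries, with a difference of −7.18 ± 1.14. Prkaca was higher in KO at 260 h (mean 59.1 CPM in KO and 17.2 CPM in WT libraries) and lower at 360 h, a difference of −4.12 ± 0.43. The 5 genes had means of at most 9.21 CPM in either genotype at 260 h, while the effect on Prkaca turned round.

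For other genes no difference between the times was called. Six5 averaged 66.8 CPM in KO and 4.92 CPM in WT early pachytene libraries, and its difference of 2.02 ± 0.66 was not called (edgeR adjusted p = 0.0705). Gm4969 had log2 fold changes of 6.05 at 360 h and 5.55 at 260 h, Pbx3 of 3.66 and 3.51, and Asns of 3.80 and 3.69, with differences of 0.49 ± 0.94, 0.13 ± 0.51 and 0.11 ± 0.65 that were not called. Wdr63 and Ift43 were lower at both times (−2.27 and −1.84, and −1.11 and −1.32). A difference that misses the threshold does not show that effects were equal.

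**Figure D4:**
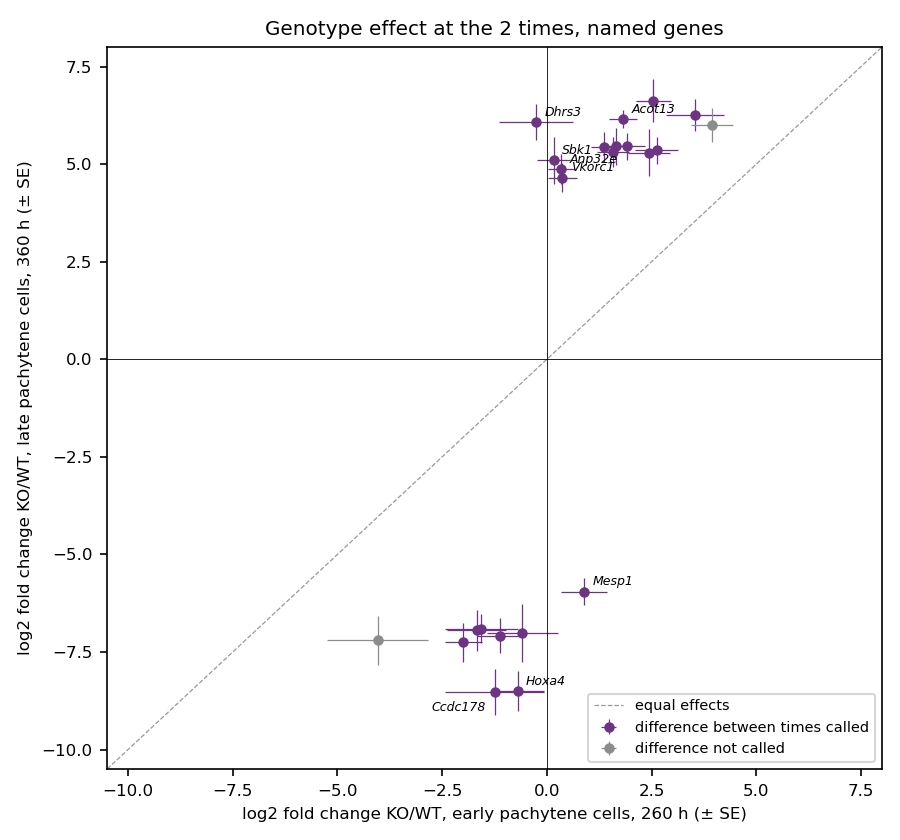
Log2 fold change of KO over WT in early pachytene cells at 260 h (horizontal) and late pachytene cells at 360 h (vertical), with SE bars, for the genes named for the largest changes or differences and tested at both times (7 of them, such as Tekt3 and Prss21, were below the filter at 260 h and are not drawn); the dashed line marks equal effects. Purple points have a called difference, as Dhrs3 does (6.08 at 360 h, −0.26 at 260 h), while Six5 and Slamf7 (grey) do not.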

How the data were processed

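Per the labels, poly(A) RNA of single germ cells was barcoded, tagged with UMIs and sequenced from its 3′ end. Per the submitters' processing notes, UMI-tools 1.0.0, STAR 2.5.3a, featureCounts 1.6.4 and the mm10 build were used; the deposited values are UMI counts per gene and cell, without normalization, and the strand setting of the counting is not stated in them. The cell classes and clusters are those of the authors' deposited cell table.

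Counts of the 487 late pachytene cells at 360 h, and of the early pachytene cells at 260 h, were summed per library over 55450 genes; 92 spike-ins were kept apart. Low genes were left out with filterByExpr, libraries were scaled by TMM over the 12 sums, and KO was compared with WT by edgeR 4.0.16 (R 4.3.3) with robust quasi-likelihood F-tests and Benjamini-Hochberg adjustment over all genes tested. The SE is the absolute log2 fold change over the square root of F. The difference between times was a contrast in 1 fit of the 12 libraries. Shares of UMIs were compared by exact two-sided permutation tests. The tests were also run on simulated counts in which few genes changed, as many up as down. Calls in the data were many more and uneven, so that run does not check the scaling. Alternatives were other scalings, filters, DESeq2 1.42.0, limma 3.58.1 (voom), thinned cells, every kept cell, a replicate block and leaving out each library.

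Replicate numbers did not pair the libraries: deviations of same-numbered KO and WT libraries correlated at −0.141, −0.117 and −0.115. No 2 libraries agreed within sampling noise.

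Named genes are Zfp541, the 12 called genes with the largest change in each direction (mean of at least 20 CPM over the 6 libraries, no overlap between genotypes, no predicted, mitochondrial or accession-like names), up to 3 called members of each list with the smallest p, and the 5 largest called differences between times in each direction; others are said to be chosen after their values were seen, or are named for the label check. The cells, the 30 lists and the rule were chosen with earlier results of these data known. Of 734 listed genes, 3 had no row and 96 were below the filter. One of the genes that the rule names is not reported here.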

Additional observations from a re-analysis of the deposited data

Results flagged for a closer look

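The effect of genotype differed between late pachytene cells at 360 h and early pachytene cells at 260 h in 1578 genes (edgeR, adjusted p under 0.05, test of the difference itself). Among the largest rises at 360 h, the log2 fold change of KO over WT at 360 h minus that at 260 h was 4.10 for Tmem160, 2.63 for Bend6, 4.33 for Acot13, 6.22 for Dhrs3, 3.52 for Fads1, 3.80 for Arhgap21, 4.07 for Dip2c, 2.73 for Tmem41a, 3.72 for Rbp4 and 2.87 for Mpv17l2. Among the largest falls it was −7.30 for Ccdc178, −7.79 for Hoxa4, −5.54 for Tekt3, −5.23 for Susd5, −5.13 for Hyal6, −7.06 for Tmed6, −5.98 for Csl, −6.32 for Gtsf2, −5.82 for Frs3os, −5.25 for Prss47 and −5.34 for Slco6c1. Among the genes named for the difference alone it was 4.93 for Sbk1, 4.53 for Anp32e, 4.29 for Vkorc1, −7.18 for Prss21, −7.04 for Pou5f2 and −6.91 for Mesp1. Tekt3, Hyal6, Tmed6, Frs3os, Prss21 and Pou5f2 had too few UMIs at 260 h to be tested there alone.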

How the results depend on the processing

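Against 2085 higher and 3762 lower genes in late pachytene cells, spike-in scaling gave 870 higher and 4471 lower. DESeq2 size factors, TMM over the 6 libraries, no filter, a filter of 10 CPM, DESeq2, limma-voom, all 12 libraries in 1 fit, every kept cell and thinned cells gave 1465 to 2809 higher and 2861 to 4655 lower. Leaving out 1 library gave 3888 (without KO library 2) to 6235 genes (without WT library 3), of which 1337 to 2166 were higher and 2551 to 4069 lower; list members called numbered 210 to 309, against 281. For the difference between times, 1578 genes with 650 higher and 928 lower, spike-in scaling gave 480, 98 and 382, no filter gave 1405 lower, and DESeq2 gave 2501, with 1559 lower. With WT early pachytene cells of cluster 3 only, chosen after seeing the data, 863 were called, 387 higher and 476 lower; the lone WT library at 260 h is then assumed to vary like the other groups. Leaving out 1 library gave 814 to 1667, 343 to 670 higher and 471 to 997 lower, and fell by over 1.5 times in total without KO library 2 (833) or 3 (814) of 360 h or KO library 2 (1029) of 260 h. The cause of these changes was not tested. With replicate number as a block, 4857 genes (1696 higher, 3161 lower) and 1438 differences (579 and 859) were called; the pairing is not given by the labels. Over every kept cell the X-linked share differed by 0.231 percentage points, against 0.124. Of the 109 named genes, 0 reversed under any alternative run; 8 lost their call with spike-in scaling (Trerf1, Smc1b, Majin, Dazl, Pole, Pold1, Trp53inp1 and Ctsl), and Nanos3, Ctsl, Hsd3b1 and Ttc30b under 1 or more others. Comparisons within cluster 4 or cluster 5 could not be fitted, since each held 1 genotype. Genes near 0 in 1 genotype rest on few UMIs there, so the size of their fold change is imprecise.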

Other observations

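These groups were chosen after their values were seen. Long intergenic non-coding RNAs had the largest share of lower calls among the annotated gene types compared in late pachytene cells at 360 h. Of 1030 tested, 53 were higher in KO and 459 lower (44.6%, median log2 fold change −1.13), against 22.3% lower among all genes and 21.1% among 12875 protein-coding genes. With spike-in scaling 34 were higher and 515 lower. The fall was not theirs alone: shares lower in the other types ran from 9.93% to 38.7%. Antisense genes had 227 of 691 lower (32.9%, median −0.56), and transcribed unprocessed pseudogenes 24 of 62 (38.7%, median −0.88). Of 17 Prss genes, which encode serine proteases, 12 were lower and 1 higher (median −2.09), and of 12 Ttll genes, which encode tubulin-modifying ligases, 6 were lower and 0 higher (median −1.59); 3 were lower without KO library 2 and 4 without KO library 3, and the median was −0.95 without WT library 3.

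Of 341 X-linked genes tested, 15 were higher (4.4%) and 3 lower (0.88%), where 12.4% of all genes were higher and 22.3% lower. Their median was 0.84, and 0.44 with spike-in scaling, where 4 were higher and 3 lower. The 15 higher calls rested on single libraries: they numbered 45 without KO library 1, 1 without KO library 2 or KO library 3, 3 without WT library 2 and 6 without WT library 3. Of 22 mitochondrial genes, 9 were higher and 0 lower (median 0.95); 5 were higher with spike-in scaling, 6 without KO library 2, 5 without KO library 3, and 3 with a filter of 10 CPM (median 0.42). Genes with Rpl or Rps symbols, the stems used for large and small ribosomal subunit genes, depended on the scaling and on single libraries. They were taken by symbol whatever their gene type, so pseudogenes with such symbols were not kept apart. Of 107 Rpl genes 19 were higher (17.8%, against 12.4% of all genes) and 0 lower (median 0.51), against 5 and 2 with spike-in scaling (median 0.08). Of 78 Rps genes 13 were higher (16.7%) and 3 lower (median 0.38), against 2 and 3 with spike-in scaling (median −0.07). Higher Rpl genes numbered 9, 5 and 7 without KO library 1, 2 or 3 and 12 without WT library 2, with a median of 0.27 without KO library 1 and 0.20 without WT library 3. Higher Rps genes numbered 5, 1 and 7 without KO library 1, 2 or 3 and 8 without WT library 1, with a median of 0.25 without KO library 1.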
